A study of Mus musculus with 6 samples.

Results

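Endoplasmic reticulum (ER) chaperones fold proteins that enter the secretory pathway. The 10 genes described here are the chaperones, co-chaperones and helpers that the transcription factors ATF6 and XBP1 are known to switch on, together with Xbp1 itself. They were chosen by gene symbol from the 23398 genes of the deposited table, with earlier results of these data known, and all 10 were found there. They were measured in dendritic cells grown from mouse bone marrow (BMDC), antigen-presenting cells of the immune system, kept in DMEM with serum, penicillin and streptomycin. 3 libraries came from cells given vehicle and 3 from cells given calcium hydroxide, Ca(OH)2, nanoparticles, each for 12 hours. The labels give no strain, allele, age or dose. They do not say whether the libraries of a group came from separate cultures or animals, so the p-values below measure only the spread between these samples, which may be technical. The comparison asks how transcript levels differ between treated and untreated cells.

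The unfolded protein response is the cell's reaction to misfolded protein in the ER. Its sensors are IRE1 (encoded by Ern1), PERK (Eif2ak3) and ATF6. IRE1 splices the Xbp1 transcript into the form that codes for the active factor, ATF6 is cleaved in the Golgi to release its own factor, and PERK slows translation and raises ATF4. ATF6 and XBP1 then raise the chaperone genes, while ATF4 raises genes of amino acid supply and of the stress response. Dendritic cells are known to use the IRE1 and XBP1 branch even when unstressed. Gene-level values hold both forms of Xbp1, so its splicing was not measured here.

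The factors are known to act through short promoter elements, which are shown here where the promoters of these genes held one. The ER stress element (ERSE) is CCAAT, any 9 bases, then CCACG, and ERSE-II is ATTGG, any 1 base, then CCACG. Promoters from 250 bases before to 50 bases after the annotated start were taken from RefSeq (GRCm38.p6) and searched on both strands. 9 of the 10 genes had an entry, and Manf did not. The windows below are written 5′ to 3′ on the gene's own strand, with the CCAAT and CCACG of each ERSE, or the whole ERSE-II, in capitals. In Hsp90b1 the copy nearer the start lies on the opposite strand, so they read as their reverse complements. The windows are chr2:34772013-34772055 (forward) for Hspa5, chr10:86705521-86705668 (reverse) for Hsp90b1, chr14:118937815-118937857 (forward) for Dnajc3, chr12:17266479-17266521 (forward) for Pdia6 and chr8:94386365-94386399 (forward) for Herpud1. All lie upstream of the RefSeq start used for the search. The gene spans given further on are those of GENCODE M21, which starts Hspa5 earlier, so that the Hspa5 window falls inside that longer span.
Hspa5: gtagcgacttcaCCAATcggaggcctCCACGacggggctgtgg
Hsp90b1: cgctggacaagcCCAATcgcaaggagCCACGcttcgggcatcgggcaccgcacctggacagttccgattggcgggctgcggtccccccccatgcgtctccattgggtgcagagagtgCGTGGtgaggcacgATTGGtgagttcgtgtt
Dnajc3: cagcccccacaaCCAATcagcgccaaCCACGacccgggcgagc
Pdia6: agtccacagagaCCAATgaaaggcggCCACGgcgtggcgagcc
Herpud1: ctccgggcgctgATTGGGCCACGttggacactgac

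An ERSE was present in 4 of the 9 promoters, against 0.119% of all 32851 promoters in the table. The 4 were Hspa5, Hsp90b1, Dnajc3 and Pdia6, and Hsp90b1 alone among them held 2 copies. Measured from the start site to the near end of the element, the ERSE of Hspa5 lay 46 bases upstream, that of Pdia6 79 bases and that of Dnajc3 86 bases, while the copies of Hsp90b1 lay 88 and 193 bases upstream. Herpud1 held an ERSE-II 41 bases upstream, an element found in 0.0365% of all promoters. The core of the unfolded protein response element, TGACGTGG, was found in 0 of the 9 promoters and in 0.676% of all promoters. The separate parts are common. CCAAT was present in 8 of the 9 promoters against 37.4% of all, and CCACG in 8 of 9 against 32.8%, both counts including those inside the elements. Xbp1 was the promoter with neither in this window. These matches describe letters and do not show binding. The genes were listed as targets of the factors that act through these elements, so the contrast with all promoters is not independent of that choice.

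**Figure D1:**
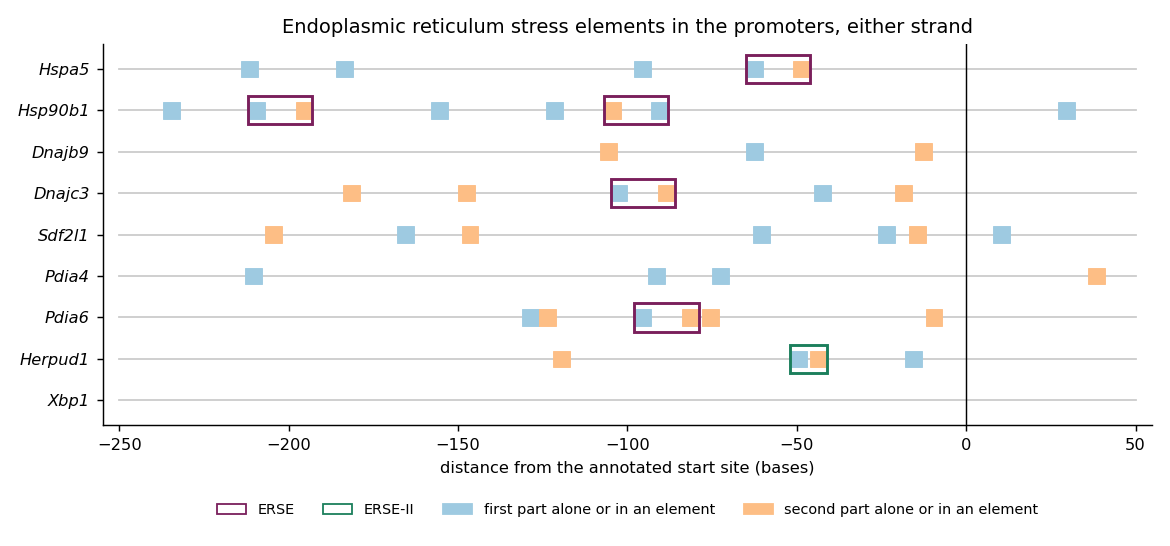
Positions of promoter elements in 9 genes, as distance in bases from the start site annotated by RefSeq (0). Open boxes are whole elements (ERSE or ERSE-II) and filled squares are their CCAAT (blue) and CCACG (orange) parts, on either strand. The elements of Hspa5, Hsp90b1, Dnajc3, Pdia6 and Herpud1 all lie upstream of the RefSeq start, from 41 to 193 bases away at their near ends.

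Levels are given in FPKM (fragments per kilobase of transcript in a scaled library), which can be compared between genes because they are per length. The reads recovered from the deposited values came to 17326555 to 22011606 per library, and the 10 genes rested on 265 to 19207 reads each, a counting error of 0.722% to 6.14%. Nanoparticle library 1 stood apart from the rest. Over all tested genes its correlation on the log scale with the other nanoparticle libraries was 0.942 and 0.928, against 0.990 between those libraries and 0.993 to 0.994 between vehicle libraries. The results for the 10 genes and the counts of each list are therefore given with and without it. The deposited FPKM also sum to more in nanoparticle libraries (400186 to 491404) than in vehicle libraries (321728 to 328384). Over all tested genes the middle log2 change was -0.00 as deposited, -0.28 after rescaling to equal read totals and -0.44 after rescaling to an equal FPKM sum (TPM). Of 12 dendritic cell markers 11 reached 1 FPKM in at least 3 libraries, but Flt3, a receptor of dendritic cell development, was at or under 0.0793 FPKM in every library.

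As deposited, 1 of the 10 genes passed the test across all 10682 tested genes (limma on log2(FPKM + 1), Benjamini-Hochberg adjusted p under 0.05), against 33.2% of all tested genes. The gene was Dnajc3, which fell. None of the 10 passed as higher, against 17.0% of tested genes higher and 16.2% lower. 2 of the 10 genes, Dnajc3 and Pdia4, had an unadjusted p under 0.05, both with lower levels. The median log2 change of the 10 was -0.42. Nanoparticle library 1 held the lowest value in 9 of the 10 genes, which was so for 32.5% of tested genes. In 5 it was at least 1.5-fold below both other nanoparticle libraries, against 19.4% of tested genes.

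Leaving out nanoparticle library 1, 8 of the 10 genes passed, against 64.8% of tested genes. At the deposited scaling 3 of these were higher (Hspa5, Dnajb9 and Manf), against 34.3% of tested genes, but with this library out none of the 3 was higher past the threshold at equal read totals or TPM, and under TPM Hspa5 and Dnajb9 passed as lower. The 5 lower genes (Hsp90b1, Dnajc3, Sdf2l1, Pdia4 and Herpud1), against 30.5% of tested genes lower, were also lower past the threshold in both rescalings of these 5 libraries. In those rescalings 5449 of all 10682 tested genes were lower with equal read totals and 6632 with TPM. The median log2 change of the 10 was then -0.16, and that of all tested genes 0.02. Over all 6 libraries the nanoparticle and vehicle values did not overlap in 7 of the 10 genes, against 52.1% of tested genes, and with nanoparticle library 1 left out this held in 9, against 77.5%.

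Since the scaling sets where 0 lies, the change of each gene was also set against the median of all tested genes in the same fit. The median of the 10 genes less that of all tested genes was -0.42 on the log2 scale as deposited, -0.48 with equal read totals and -0.46 with TPM. Without nanoparticle library 1 these differences were -0.18, -0.24 and -0.22. Hspa5 and Dnajb9 lay above the median of all genes under all 6 of these settings. Manf lay above it as deposited and in the settings without nanoparticle library 1, and at -0.02 and -0.0034 in the rescalings with it. The other 7 genes lay below it under all 6 settings.

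**Figure D2:**
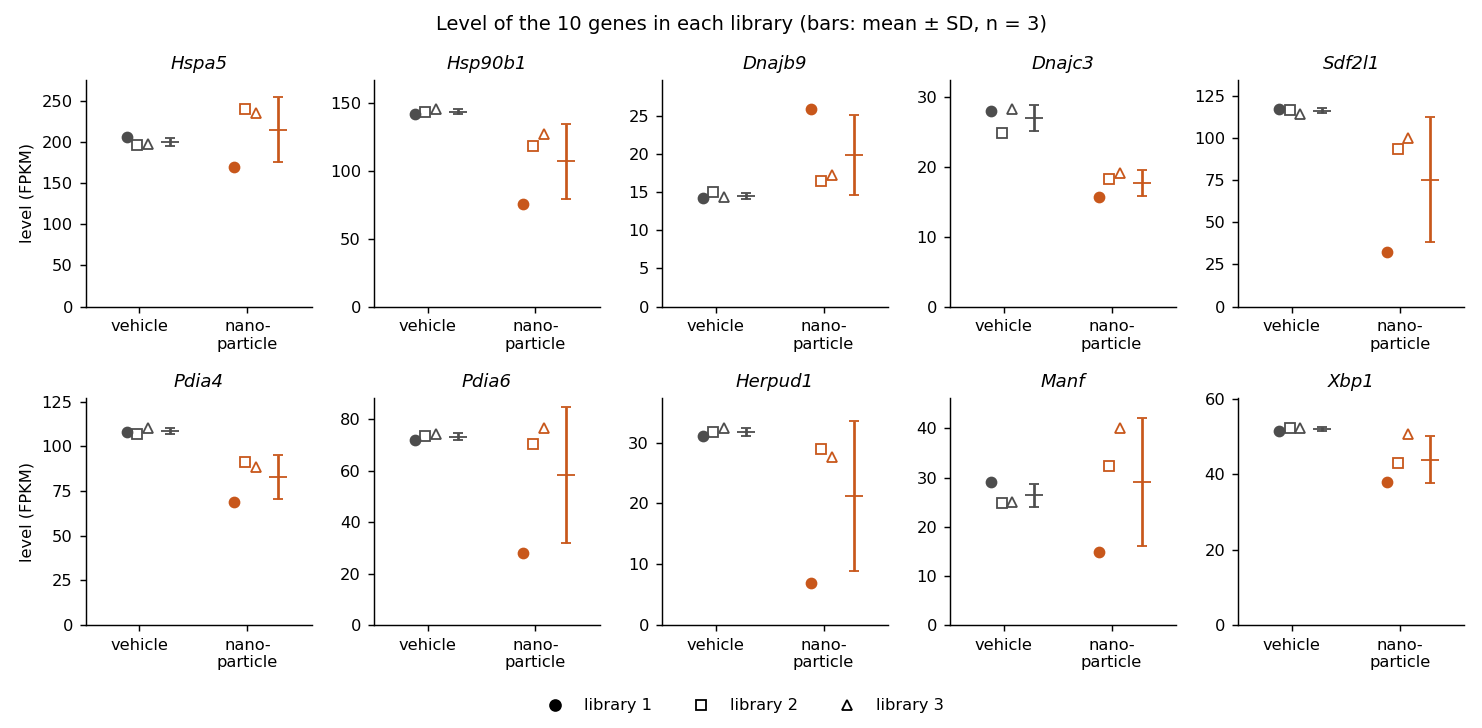
Level of each of the 10 genes (FPKM, linear axis from 0) in every library, vehicle in grey and nanoparticle in orange, with the symbol giving the library number. Bars are mean ± SD over 3 libraries. The filled circle of nanoparticle library 1 lies lowest of the 6 libraries in 9 panels and highest in that of Dnajb9.

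Hspa5 encodes BiP, the Hsp70 chaperone of the ER lumen, which binds exposed hydrophobic stretches of nascent proteins and holds the sensors inactive. The gene lies at chr2:34771970-34777547 on the forward strand, and its reads overlap no other annotated exon. It stood at 206, 197 and 198 FPKM in vehicle libraries 1 to 3 and at 169.6, 239.9 and 236 FPKM in nanoparticle libraries 1 to 3. Nanoparticle library 1 thus lay below every vehicle library while the other nanoparticle libraries lay above them. Means were 200.2 ± 4.79 FPKM (SD, n = 3) with vehicle and 215 ± 39.4 FPKM (SD, n = 3) with nanoparticles, a log2 change of 0.09 (SE 0.167, adjusted p = 0.733), smaller than the spread between libraries. It was 0.25 (SE 0.0480, adjusted p = 0.0042) with library 1 left out, but -0.11 and -0.31 when equal read totals or TPM were used as well.

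Hsp90b1 encodes GRP94, the Hsp90 chaperone of the ER, which folds Toll-like receptors and integrins. It lies at chr10:86690209-86705509 on the reverse strand. Vehicle libraries held 142, 143 and 145 FPKM, and nanoparticle libraries 75.7, 118 and 127 FPKM. All nanoparticle libraries were below all vehicle libraries, at 52.8%, 82.3% and 88.7% of the vehicle mean. At the deposited scaling the log2 change of -0.45 (SE 0.209, adjusted p = 0.147) missed the threshold with library 1 included. It was -0.23 (SE 0.0528, adjusted p = 0.00942) when that library was omitted. Over all 6 libraries Hsp90b1 passed as lower with equal read totals (log2 change -0.80, adjusted p = 0.018) and with TPM (-0.93, adjusted p = 0.0031). An opposite-strand pseudogene, 1810014B01Rik, shares 10.3% of its exon bases, and the strand used for counting is not given in the sources used here.

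The Hsp70 and Hsp90 chaperones were also compared by their ratio, which no scaling between libraries can move. Hspa5 stood at 1.45, 1.38 and 1.36 times Hsp90b1 in the vehicle libraries and at 2.24, 2.03 and 1.86 times in the nanoparticle libraries. The groups did not overlap, with a difference of 0.54 in the log2 ratio, and the exact permutation test (two-sided) gave p = 0.1, the smallest that 3 against 3 allows. It was one of 5 ratios, chosen after the levels had been seen, and its Benjamini-Hochberg adjusted p over the 5 exact permutation tests was 0.125. Without nanoparticle library 1 the difference in the log2 ratio was 0.48. As a share of the summed FPKM of the 10 genes, Hspa5 made up 25.8%, 25.0% and 24.9% in vehicle and 35.6%, 31.9% and 30.1% in nanoparticle libraries.

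Dnajb9 and Dnajc3 encode ERdj4 and P58IPK, J-domain co-chaperones that stimulate the ATPase of BiP. ERdj4 is also known to help BiP repress IRE1. Dnajb9 lies at chr12:44205559-44210326 on the reverse strand and stood at 14.2, 15.0 and 14.3 FPKM in vehicle libraries and at 25.8, 16.4 and 17.3 FPKM in nanoparticle libraries. Every nanoparticle library was above every vehicle library, and the highest was library 1, at 178% of the vehicle mean. Over all libraries the log2 change was 0.40 (SE 0.179, adjusted p = 0.139) and, omitting that library, 0.20 (SE 0.0595, adjusted p = 0.0234). The first value was 0.07 with equal read totals and -0.05 with TPM, so the sign of this difference depends on the scaling.

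Dnajc3, at chr14:118937976-118981697 on the forward strand, stood at 28.0, 24.9 and 28.3 FPKM with vehicle and at 15.7, 18.3 and 19.2 FPKM with nanoparticles. Here library 1 was close to its fellows, at 83.6% of their mean. Means were 27.1 ± 1.89 FPKM and 17.7 ± 1.84 FPKM (SD, n = 3 each). Dnajc3 fell by 0.59 on the log2 scale (SE 0.117, adjusted p = 0.0104), and fell in both rescalings as well. The call was lost without vehicle library 1 (adjusted p = 0.0565) or vehicle library 3 (adjusted p = 0.0606), and over all alternatives the adjusted p ran from 2.8e-05 to 0.0606. Without nanoparticle library 1 the log2 change was -0.51 (SE 0.0734, adjusted p = 0.00116).

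The J-domain genes were set against each other in the same way. The ratio of Dnajb9 to Dnajc3 was 0.508, 0.602 and 0.505 in vehicle libraries and 1.65, 0.897 and 0.899 in nanoparticle libraries, with no overlap. The difference in the log2 ratio was 1.04 (exact permutation test, p = 0.1, adjusted p = 0.125), and 0.74 when nanoparticle library 1 was left out. Both ratios, of chaperones and of co-chaperones, had the same direction whichever nanoparticle library was omitted.

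Sdf2l1 encodes a small ER protein that works with BiP and the J-domain co-chaperones. The gene is at chr16:17130138-17132383 on the reverse strand. Its vehicle levels of 117, 117 and 114 FPKM contrasted with 32.4, 93.2 and 99.8 FPKM with nanoparticles. Nanoparticle library 1 held 28.0% of the vehicle mean, and the other nanoparticle libraries 80.4% and 86.1%. The log2 change was -0.78 (SE 0.421, adjusted p = 0.208) over 6 libraries and -0.26 (SE 0.0520, adjusted p = 0.0045) over 5, so library 1 set most of its size at the deposited scaling. Over 6 libraries Sdf2l1 passed as lower with TPM (log2 change -1.25, adjusted p = 0.0269) but not with equal read totals (-1.12, adjusted p = 0.0643).

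Pdia4 and Pdia6 encode ERp72 and P5, protein disulfide isomerases that form and rearrange disulfide bonds, and P5 is known to end IRE1 signalling. Pdia4, at chr6:47796141-47813430 on the reverse strand, stood at 108, 107 and 110.5 FPKM in vehicle and 68.8, 91.5 and 88.7 FPKM in nanoparticle libraries. All nanoparticle values lay below all vehicle values. The log2 change was -0.40 (SE 0.141, unadjusted p = 0.0292, adjusted p = 0.0757), and -0.27 (SE 0.0476, adjusted p = 0.00289) without library 1. With library 1 kept, Pdia4 passed as lower with equal read totals (log2 change -0.74, adjusted p = 0.00551) and with TPM (-0.87, adjusted p = 0.000961).

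Pdia6, at chr12:17266545-17284770 on the forward strand, stood at 71.8, 73.4 and 74.4 FPKM in vehicle and 28.1, 70.4 and 76.7 FPKM in nanoparticle libraries. At the deposited scaling only library 1 stood apart, at 38.3% of the vehicle mean, and the other nanoparticle libraries lay on either side of the vehicle values. The log2 change was -0.45 (SE 0.373, adjusted p = 0.405), and 0.0054 (SE 0.0568, adjusted p = 0.938) over the other 5 libraries. Over those 5 Pdia6 passed as lower with equal read totals (log2 change -0.35, adjusted p = 0.00126) and with TPM (-0.55, adjusted p = 9.5e-05). The medians of all tested genes were then -0.27 and -0.48. The ratio of Pdia6 to Pdia4 was 0.662, 0.684 and 0.674 in vehicle libraries and 0.408, 0.769 and 0.865 in nanoparticle libraries. Library 1 was below and the other nanoparticle libraries above the vehicle values, and the difference of -0.06 in the log2 ratio (exact permutation test, p = 1.0) became 0.28 without library 1.

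Herpud1 encodes an ER membrane protein that gathers the machinery of ER-associated degradation around the ubiquitin ligase HRD1. It is at chr8:94386438-94395377 on the forward strand. Vehicle libraries held 31.0, 31.7 and 32.4 FPKM, and nanoparticle libraries 6.96, 28.9 and 27.6 FPKM. Library 1 was at 21.9% of the vehicle mean, the lowest such share among the 10 genes, while the other nanoparticle libraries were at 91.2% and 87.2%. For the whole set the log2 change was -0.79 (SE 0.506, adjusted p = 0.283), and omitting library 1 it was -0.16 (SE 0.0537, adjusted p = 0.0371).

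Manf encodes a secreted and ER-resident factor that binds BiP and protects cells under ER stress. Its annotated span is chr9:106838312-106891979 on the reverse strand. Vehicle libraries held 29.1, 24.9 and 25.1 FPKM and nanoparticle libraries 14.8, 32.3 and 40.1 FPKM. Library 1 lay below all vehicle libraries and the other nanoparticle libraries above them, the same arrangement as for Hspa5. The log2 change was 0.03 (SE 0.349, adjusted p = 0.958), and without library 1 it was 0.44 (SE 0.111, adjusted p = 0.0128), but 0.09 and -0.10 with equal read totals or TPM. Opposite-strand exons of 4930524O07Rik and Dcaf1 share 4.71% and 4.14% of its exon bases.

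Xbp1 encodes the transcription factor of the IRE1 branch and lies at chr11:5520659-5525893 on the forward strand. It stood at 51.4, 52.4 and 52.4 FPKM with vehicle and at 38.1, 43.0 and 50.7 FPKM with nanoparticles. The groups did not overlap, though nanoparticle library 3 was within 1 FPKM of the lowest vehicle value. The log2 change of -0.25 (SE 0.130, adjusted p = 0.194) and that of -0.15 (SE 0.0759, adjusted p = 0.12) over 5 libraries both missed the threshold. It passed as lower with equal read totals (log2 change -0.59, adjusted p = 0.0092) and with TPM (log2 change -0.72, adjusted p = 0.0016), rescalings that lower all genes.

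**Figure D3:**
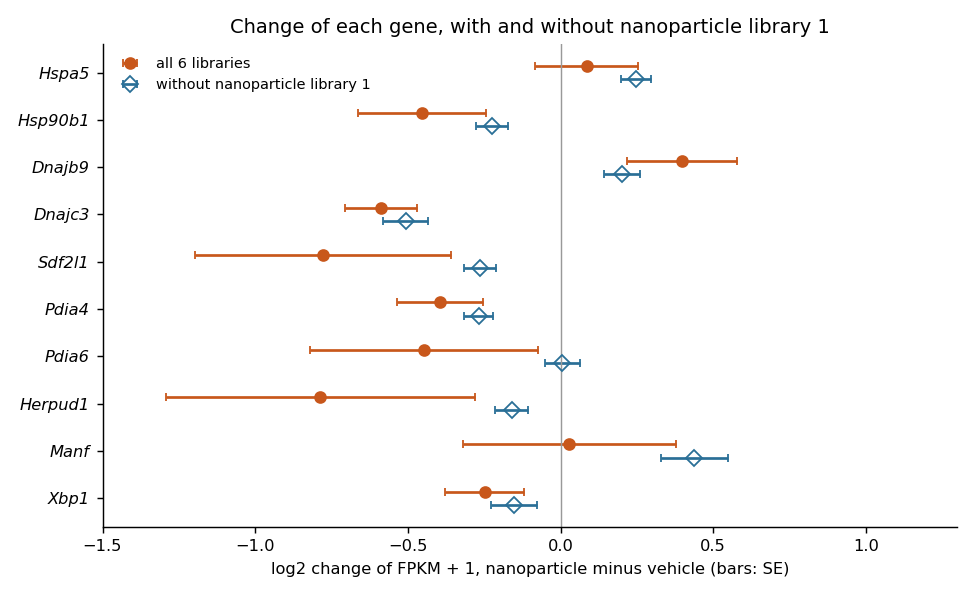
Log2 change (nanoparticle minus vehicle, of FPKM + 1) of each gene with its SE, from all 6 libraries (filled circles) and without nanoparticle library 1 (open diamonds). The change of Herpud1 goes from -0.79 to -0.16 and that of Pdia6 from -0.45 to 0.0054, while Dnajc3 stays at -0.59 and -0.51.

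In the vehicle libraries the order of mean levels was Hspa5, Hsp90b1, Sdf2l1, Pdia4, Pdia6, Xbp1, Herpud1, Dnajc3, Manf and Dnajb9. Only Dnajc3 and Manf overlapped among neighbours in this order. Hspa5 and Hsp90b1 were first and second in all 6 libraries. In nanoparticle library 1 Herpud1 was last of the 10 genes and Dnajb9 seventh. The summed level of the 10 genes was 798, 786 and 795 FPKM in vehicle and 476, 752 and 783 FPKM in nanoparticle libraries. As a share of all FPKM in the library this was 0.243%, 0.243% and 0.247% against 0.119%, 0.162% and 0.159%. Every nanoparticle library had the lower share, which uses total FPKM as its base. In bulk samples such as these, fewer cells that express a gene and less RNA per cell cannot be told apart.

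Across the 6 libraries 9 of the 10 genes correlated positively with the others and 1 negatively. The correlation of a gene's log2 level with the mean of the other 9 was 0.991 for Sdf2l1, 0.987 for Pdia6, 0.984 for Herpud1 and 0.970 for Hsp90b1. It was 0.566 for Hspa5 and -0.968 for Dnajb9. Of the 45 pairs of genes, 13 had a correlation over 0.9. These values describe 6 libraries in which 1 stands apart, and the libraries share their scaling. The averaged pattern of the 10 genes was most like that of Galnt9, Pycard, Hmgcs1, Rpl3, H2-DMb1 and Ffar4 among 6097 other genes with a mean of at least 5 FPKM, with Pearson correlations over the 6 libraries of 0.997 to 0.999. Without nanoparticle library 1 their correlations were 0.899 to 0.983 and none of the 6 stayed among the first 6, at ranks from 7 to 130. Galnt9, for example, stood at 27.3 to 29.3 FPKM in vehicle libraries and at 3.91, 21.5 and 25.9 FPKM in nanoparticle libraries.

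The ER chaperones could be set against their cytosolic counterparts, which belong to the heat shock response. Hspa8 encodes the constitutive cytosolic Hsp70, and Hsp90aa1 a cytosolic Hsp90. Hspa5 stood at 0.614, 0.626 and 0.623 times Hspa8 in vehicle libraries and at 0.304, 0.496 and 0.495 times in nanoparticle libraries. Hsp90b1 stood at 1.53, 1.64 and 1.62 times Hsp90aa1 in vehicle libraries and at 0.507, 0.943 and 1.07 times in nanoparticle libraries. Both ratios were lower in every nanoparticle library than in any vehicle library. The differences in log2 ratio were -0.56 for Hspa5 to Hspa8 and -0.99 for Hsp90b1 to Hsp90aa1 (exact permutation tests, p = 0.1 and adjusted p = 0.125 for each). They were -0.33 and -0.67 with nanoparticle library 1 left out. In both pairs the ER gene thus stood lower against the cytosolic gene in the nanoparticle libraries. Hspa8 and Hsp90aa1 were themselves higher as deposited (log2 changes 0.64 and 0.53), and these rises are part of the lower ratios. Hsp90ab1, another cytosolic Hsp90 gene with a vehicle mean of 464 FPKM, had a log2 change of 0.21 (adjusted p = 0.306). No ratio to it was computed.

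**Figure D4:**
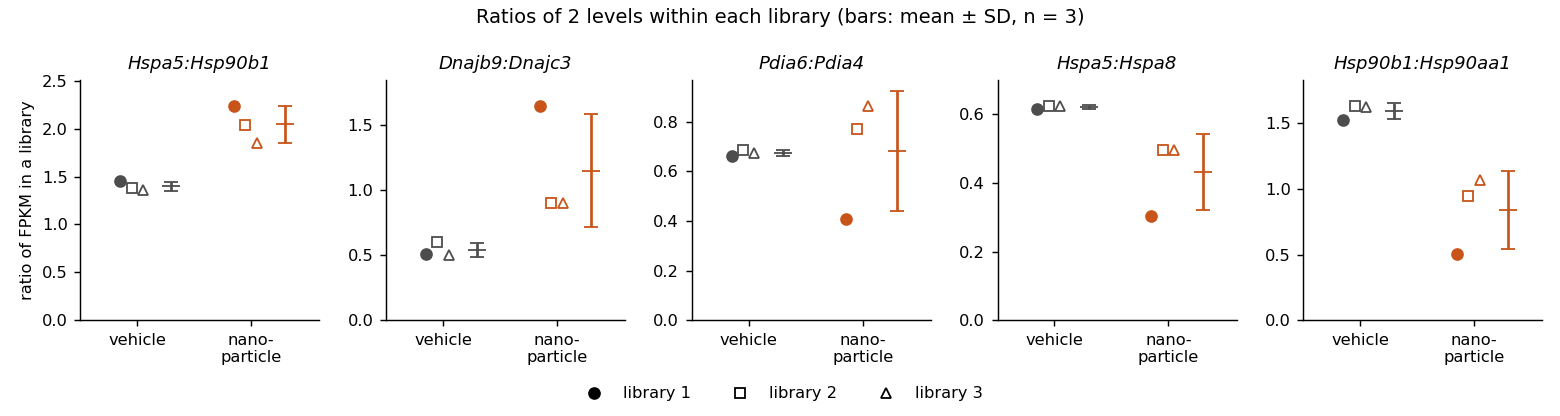
Ratio of the FPKM of 2 genes within each library (linear axis from 0), vehicle in grey and nanoparticle in orange, with mean ± SD over 3 libraries. In 4 of the 5 panels the groups do not overlap, and in Pdia6 to Pdia4 the vehicle values of 0.662 to 0.684 lie between nanoparticle library 1 and the other nanoparticle libraries. The ratios were chosen after the levels had been seen. Of single tested genes 52.1% did not overlap, and no such share was computed for other ratios.

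Among the sensors and transcription factors upstream of the 10 genes, 4 of 12 tested genes were higher, 3 lower and 5 not past the threshold, with a median log2 change of 0.14. With equal read totals 4 were higher and 5 lower, and without nanoparticle library 1 it was 5 and 5. The counts of this and the following lists stand beside those of all 10682 tested genes. Of these 17.0% were higher and 16.2% lower as deposited, and 34.3% and 30.5% without nanoparticle library 1. With equal read totals 1109 were higher and 3603 lower, and with TPM 884 and 4241. Atf4 rose by 0.85 on the log2 scale (adjusted p = 0.00175), from 50.5 to 53.8 FPKM in vehicle to 88.4 to 99.9 FPKM in nanoparticle libraries, and remained higher past the threshold in both rescalings. Eif2ak3, which encodes PERK, fell by 0.81 (adjusted p = 0.00228). Ddit3, which encodes CHOP, a factor downstream of ATF4, rose by 1.65 (adjusted p = 0.0133) and was highest in nanoparticle library 1, at 43.3 FPKM against 16.7 and 18.1 FPKM. Its call was lost without vehicle library 2 (adjusted p = 0.055) or 3 (adjusted p = 0.0521). Cebpb rose by 1.46 (adjusted p = 0.00236). Atf6b rose by 0.67 (adjusted p = 0.0035), a call lost under TPM, while Atf6 had a log2 change of -0.52 (adjusted p = 0.0607). Without nanoparticle library 1 Atf6 passed as lower (log2 change -0.71, adjusted p = 0.000255). Ern1, the gene of IRE1, stood at 15.1 FPKM in nanoparticle library 1 against 4.17 and 3.13 FPKM in the others and 4.88 to 5.54 FPKM in vehicle. At the deposited scaling library 1 thus decides its sign, and without that library Ern1 passed as lower (log2 change -0.42, adjusted p = 0.0166).

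The targets of the ATF4 branch supply amino acids and restart translation. Of 11 tested targets (Chac1 was too low to test), 6 were higher, 3 lower and 2 not past the threshold, with a median log2 change of 0.59. Ppp1r15a, which encodes the phosphatase subunit that reverses PERK's effect on translation, rose by 2.10 (adjusted p = 0.000488), from 9.34 to 11.0 FPKM in vehicle to 39.5 to 60.6 FPKM. The cystine transporter gene Slc7a11 rose by 1.35 (adjusted p = 0.00142) and the asparagine synthetase gene Asns by 1.00 (adjusted p = 0.00105), both also with equal read totals and TPM. Sesn2, which encodes a stress-induced regulator of growth signalling, fell by 0.89 (adjusted p = 0.000799). With equal read totals 3 targets were higher and 3 lower, and without nanoparticle library 1 it was 7 and 3. Whether the counts of these lists differ from that of the 10 genes was not tested.

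Other folding factors work beside the 10 genes in the ER lumen. Of 25 tested, 3 were higher, 3 lower and 19 not past the threshold (median log2 change -0.08). With equal read totals 10 were lower and 0 higher, against 3603 lower and 1109 higher of all 10682 tested genes. In 7, nanoparticle library 1 was at least 1.5-fold below both other nanoparticle libraries, against 19.4% of tested genes. When that library was omitted 7 were higher and 7 lower, against 34.3% and 30.5% of tested genes. Uggt1, the sensor enzyme of glycoprotein folding, fell by 0.89 (adjusted p = 0.00102), and Hyou1, a large ER chaperone that exchanges nucleotide on BiP, fell by 0.52 (adjusted p = 0.013). Dnajc10, a J-domain disulfide reductase, rose by 0.60 (adjusted p = 0.00387), and Sdf2, a relative of Sdf2l1, rose by 0.71 (adjusted p = 0.0148), although both missed the threshold in the rescalings. The call of Hyou1 was lost without any 1 vehicle library (adjusted p = 0.0628 to 0.0674), and that of Sdf2 without any 1 vehicle library or nanoparticle library 2 (adjusted p = 0.053 to 0.0717). Calr, Canx, Pdia3, P4hb, Dnajb11 and Creld2 did not pass as deposited, with log2 changes of -0.24, -0.19, -0.47, -0.33, 0.18 and -0.23. Without nanoparticle library 1 Canx (-0.14, adjusted p = 0.0453), Pdia3 (-0.21, adjusted p = 0.00608) and P4hb (-0.23, adjusted p = 0.00445) passed as lower. Dnajb11 (0.28, adjusted p = 0.00412) then passed as higher, and Calr and Creld2 did not pass. Calr, the lectin chaperone calreticulin, stood at 215 FPKM in nanoparticle library 1 against 368 and 369 FPKM in the other nanoparticle libraries and 358 to 371 FPKM in vehicle, an arrangement close to that of Pdia6. Ero1a, an oxidase that recharges the isomerases, went the other way, at 68.1 FPKM in that library against 12.6 and 15.4 FPKM in its fellows, and is named here after its values were seen.

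ER-associated degradation, the pathway that Herpud1 serves, had 5 of 19 tested genes higher, 0 lower and 14 not past the threshold (Derl3 was too low to test). With equal read totals 1 was higher and 4 lower, against 1109 and 3603 of all 10682 tested genes. Without nanoparticle library 1 it was 7 and 3, against 34.3% and 30.5% of tested genes. Edem2, which marks misfolded glycoproteins for degradation, rose by 0.94 (adjusted p = 0.00087) and did so in both rescalings. Derl2 rose by 0.59 (adjusted p = 0.00881), Ufd1 by 0.36 (adjusted p = 0.0252) and Erlec1 by 0.61 (adjusted p = 0.0354) as deposited, and these calls were lost in the rescalings, where the sign of Ufd1 turned under TPM. Without any 1 vehicle library the calls of Ufd1 (adjusted p = 0.0985 to 0.123) and Erlec1 (adjusted p = 0.0683 to 0.131) were lost too, as was that of Ufd1 without nanoparticle library 3 (adjusted p = 0.0565) and that of Erlec1 without nanoparticle library 2 (adjusted p = 0.0894). Sel1l, the partner of the ligase HRD1, had a log2 change of -0.41 (adjusted p = 0.054), and Edem1 one of -0.21 (adjusted p = 0.145). Both passed as lower without nanoparticle library 1, Sel1l at -0.52 (adjusted p = 0.000616) and Edem1 at -0.25 (adjusted p = 0.00735).

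Of 24 tested genes of ER translocation and export, 2 were higher, 1 lower and 21 not past the threshold (Srp54a and Kdelr3 were too low), with 1 higher and 10 lower at equal read totals and 11 higher and 6 lower without nanoparticle library 1. Surf4, a cargo receptor for ER export, rose by 0.75 (adjusted p = 0.00202), a call lost under TPM, and Sec63, which links BiP to the translocation channel, fell by 0.38 (adjusted p = 0.0224). Mcfd2 rose by 0.46 (adjusted p = 0.0306) as deposited, with -0.0061 under TPM. The calls of Sec63 and Mcfd2 were lost without any 1 vehicle library (adjusted p = 0.0892 to 0.113 and 0.0806 to 0.133) or nanoparticle library 2 (adjusted p = 0.0582 and 0.0965), and that of Mcfd2 also without nanoparticle library 3 (adjusted p = 0.0756). Sec61b, a subunit of the channel, was again low in nanoparticle library 1, at 23.9 FPKM against 108 and 137 FPKM in the other nanoparticle libraries and 71.5 to 79.5 FPKM in vehicle. Sec61a1 and Kdelr2 did not pass as deposited, with log2 changes of -0.28 and -0.22. Sec61a1 passed as lower without nanoparticle library 1 (-0.35, adjusted p = 0.00602), and Kdelr2 did not pass (-0.06, adjusted p = 0.568).

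Cytosolic heat shock chaperones had 7 of 13 tested genes higher, 0 lower and 6 not past the threshold (Hspb1 was too low), with 4 higher and 2 lower at equal read totals and 10 higher and 0 lower without nanoparticle library 1. Hspa1b and Hspa1a, the stress-inducible Hsp70 genes, rose by 1.65 (adjusted p = 0.000156) and 1.44 (adjusted p = 0.000836). Vehicle libraries held 0.478 to 0.645 and 0.255 to 0.339 FPKM, and nanoparticle libraries 3.54 to 4.22 and 2.10 to 3.32 FPKM. Both genes thus met the filter of 1 FPKM only through the group where they are high, and both are counted among the 7. They are near-identical, so the division of reads between them is uncertain. Cct3, a subunit of the cytosolic chaperonin, rose by 0.90 (adjusted p = 0.00156), and these 3 passed in both rescalings. Dnaja1 rose by 0.66 (adjusted p = 0.00303), a call lost under TPM. Hspa8 rose by 0.64 (adjusted p = 0.0116) and Hsp90aa1 by 0.53 (adjusted p = 0.0206) as deposited, calls lost in the rescalings and without any 1 vehicle library (adjusted p = 0.0556 to 0.0736 and 0.0767 to 0.101), that of Hsp90aa1 also without nanoparticle library 2 (adjusted p = 0.0537). None of 8 mitochondrial chaperones and proteases passed as deposited under limma, with 1 (Hspa9) at an unadjusted p under 0.05 and 3 higher without nanoparticle library 1, but 2 lower with equal read totals and 4 lower with TPM. Hspd1 had a log2 change of -0.12.

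**Figure D5:**
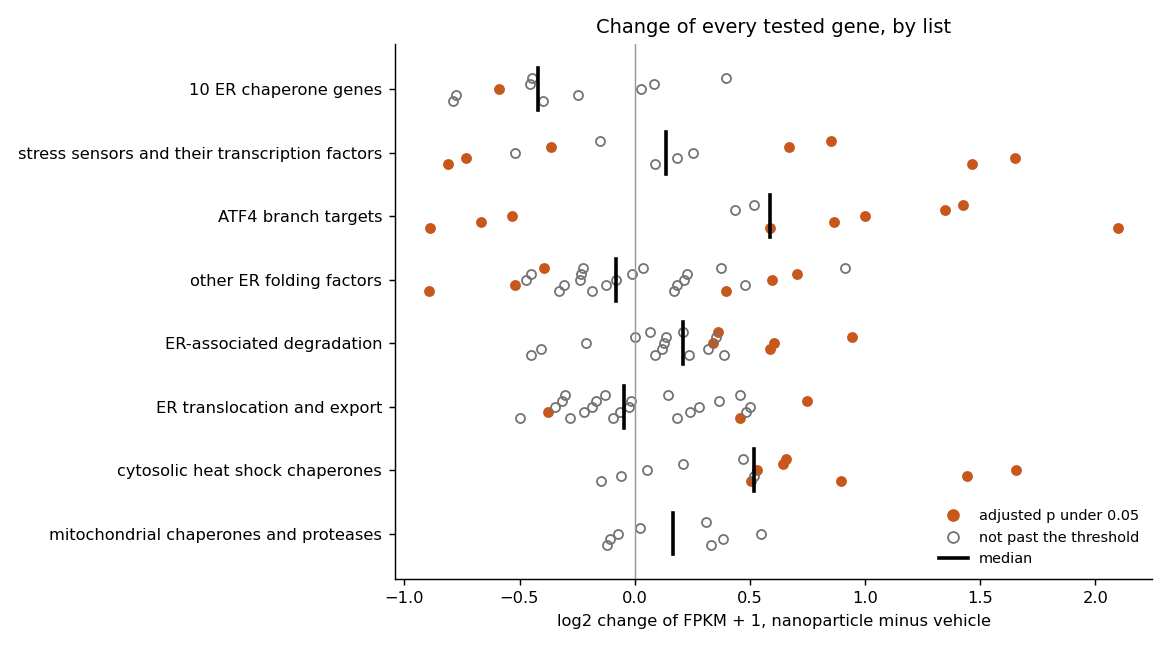
Log2 change (nanoparticle minus vehicle, of FPKM + 1, deposited scaling) of every tested gene, by list, filled where the adjusted p is under 0.05, with the list's median as a bar. The medians are -0.42 for the 10 ER chaperone genes, 0.59 for ATF4 branch targets and 0.52 for cytosolic heat shock chaperones, against -0.00 for all tested genes.

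Markers of other cells were summed in each library, since plasma cells and plasmacytoid dendritic cells are rich in ER. The B cell and plasma cell list summed to 19.9 to 28.1 FPKM in vehicle and 57.2 to 93.9 FPKM in nanoparticle libraries with 3 of 9 measured markers at 1 FPKM or more in at least 3 libraries. Sdc1 held 16.4 to 20.7 FPKM of this in vehicle and 51.9 to 84.4 FPKM in nanoparticle libraries. The antibody gene Igkc stood at 1.08 to 5.19 and 4.68 to 8.29 FPKM and Ighm at 1.58 to 1.96 and 0 to 0.487 FPKM, while Cd79a, Ms4a1 and Pax5 stayed at or under 0.329 FPKM. The plasmacytoid list summed to 98.8 to 107 FPKM and 771 to 1043 FPKM with 2 of 8 markers at that level, nearly all of it Bst2, with Siglech at or under 0.0149 FPKM. Dendritic cell markers summed to 7204 to 7675 FPKM in vehicle and to 3866, 8372 and 9145 FPKM in nanoparticle libraries 1 to 3. Most of each sum was Cd74, H2-Aa, H2-Ab1 and H2-Eb1, and members of the list differed in opposite directions. Irf8 stood at 8.47 to 8.82 FPKM in vehicle and 18.4 to 24.1 FPKM in nanoparticle libraries, and Ccr7 at 1.75 to 2.62 and 105 to 124 FPKM. Clec10a stood at 5.63 to 7.62 FPKM in vehicle and 0.507 to 1.04 FPKM in nanoparticle libraries. Itgax stood at 442 to 456 FPKM in vehicle and at 248, 398 and 375 FPKM in nanoparticle libraries 1 to 3. Macrophage markers, 10 of 11 at that level, summed to 1120 to 1298 FPKM and 1027 to 1279 FPKM, sums in which members differed in opposite directions. Adgre1 stood at 62.9 to 68.3 FPKM in vehicle and 132 to 276 FPKM in nanoparticle libraries, and Mrc1 at 51.8 to 62.8 FPKM and 3.10 to 10.6 FPKM. Neutrophil markers, 4 of 12, summed to 266 to 299 FPKM and 232 to 306 FPKM, with Mpo, Elane and Retnlg at 0 in all vehicle libraries. Within that list Lcn2 stood at 0.146 to 0.346 FPKM in vehicle and 46.4 to 52.5 FPKM in nanoparticle libraries, S100a8 at 33.4 to 36.0 and 50.1 to 108.9 FPKM, and Mmp8 at 230.2 to 259 and 129 to 133 FPKM. Mast cell and basophil markers, 4 of 7 measured, summed to 3.93 to 6.12 FPKM and 10.3 to 26.1 FPKM, and T cell and NK cell markers, 0 of 7 measured, to at most 0.580 FPKM. The part of any of these in the levels of the 10 genes was not tested.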

How the data were processed

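RNA was sequenced from 3 vehicle and 3 nanoparticle samples of mouse dendritic cells, grouped by the treatment label and numbered by title. Libraries were made from 1 µg of total RNA with the NEBNext Ultra II kit, per the labels' protocols. The submitters' processing notes name CASAVA, STAR 2.5, HTSeq, edgeR 3.16.5 and DESeq2 2, and the builds hg19 and mm10, with no roles, and the annotation and strand of counting are not given in the sources used here. The authors deposited 2 tables whose 140388 values are identical and not whole. They were treated as deposited FPKM, a unit deduced from the values: with merged exon lengths of GENCODE M21 (23388 of 23398 IDs matched), 95.8% to 96.1% of values above 0 per library became whole reads, within 0.01. Lengths that gave whole reads were searched for 266 abundant genes without them and found for 265. The 10 genes gave whole reads at their annotated lengths in all 6 libraries. Whole reads were used for depth and scaling, and no count test was run on FPKM, as planned. The deposited scaling between libraries was kept in the primary comparison. It sets the typical gene at no change.

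The 10682 genes that reached 1 FPKM in 3 or more libraries, all 10 described genes among them, were fitted as log2(FPKM + 1) on group with limma 3.58.1 in R 4.3.3 (eBayes with trend, prior degrees of freedom 2.33), and p-values were adjusted by Benjamini and Hochberg over all of them at a threshold of 0.05. The added 1 understates changes of low genes. The script was tested on simulated data. For ratios the exact permutation test of scipy 1.17.1 was used. Python 3.11.15, pandas 2.3.3, numpy 2.4.6 and, for figures, matplotlib 3.10.9 served for the rest. Ero1a and Ero1b were matched through RefSeq synonyms. Named genes were all 10, the 4 lowest adjusted p-values in each list where past the threshold, 22 further genes named in the design, and the 6 most like the 10 in pattern. The 10 genes, the lists and the ratios were chosen with earlier results of these data known. Alternatives were a pseudocount of 0.1, no filter or one of 5 FPKM, equal read totals, TPM, no trend, a replicate block, and leaving out each library. Chi-square tests of recovered reads between replicates gave 2.88 to 232 per degree of freedom, so no library was a copy of another. Protein sequences were not analysed here.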

Additional observations from a re-analysis of the deposited data

How the results depend on the processing

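The number of genes past the threshold, 3550 as reported, ran from 2141 to 6923 when 1 library was left out, the highest without nanoparticle library 1, and was 7421 and 8006 without that library under equal read totals and TPM, combinations added after seeing the data. As deposited 1817 genes were higher and 1733 lower, against 1109 and 3603 with equal read totals and 884 and 4241 with TPM. Of the 10 genes, 0 to 8 passed when 1 library was left out, 4 with equal read totals (44.1% of tested genes), 7 with TPM (48.0%), and 7 and 9 in the added combinations (69.5% and 74.9%). The 4 with equal read totals were Hsp90b1, Dnajc3, Pdia4 and Xbp1. With TPM Hspa5, Sdf2l1 and Pdia6 passed as well, all as lower. Their median log2 change was -0.90 with TPM. None of the 6 genes most like the 10 stayed among the first 6 without nanoparticle library 1 (0 shared) or with Spearman's rho (0 shared). The pseudocount, both filters and the trend setting changed no call among the 10.

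Signs turned as follows, on the log2 scale. Under TPM Hspa5 was at -0.38, Dnajb9 -0.048, Manf -0.44, Ern1 -0.25, Dnajb11 -0.28, Ufd1 -0.066 and Mcfd2 -0.0061. With equal read totals Hspa5 was at -0.26, Manf -0.30, Ern1 -0.10 and Dnajb11 -0.15. In the added combination with equal read totals Hspa5 was at -0.11, Dnajb9 -0.14, Ern1 -0.71, Dnajb11 -0.076 and Sec61b 0.34, and in that with TPM Hspa5 was at -0.31, Dnajb9 -0.33, Manf -0.10, Ern1 -0.98, Dnajb11 -0.27, Ufd1 -0.14, Erlec1 -0.042, Sec61b 0.15 and Hsp90aa1 -0.12. Leaving out 1 library gave ranges of -0.0017 to 0.25 for Hspa5, -0.70 to 0.0054 for Pdia6, -0.25 to 0.44 for Manf, -0.42 to 0.57 for Ern1, -0.37 to 0.021 for Calr, -0.39 to 0.10 for Creld2, -0.54 to 0.70 for Sec61b, -0.21 to 0.0077 for Hspd1 and -0.27 to 0.28 for the log2 ratio of Pdia6 to Pdia4. Apart from the constructions named, the cause was not tested.

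With the replicate number as a replicate block, 2785 genes passed and 1 of the 10, Dnajc3 (adjusted p = 0.0400), and 6 context genes lost their call (Hyou1, Ufd1, Sec63, Mcfd2, Hspa8 and Hsp90aa1). Deviations of same-numbered libraries correlated at 0.065, 0.113 and -0.058. With 3 libraries per group, of which nanoparticle library 1 stands apart, these values cannot decide whether the numbers pair the libraries. Leaving out a library of a group assumes that the 2 left vary like the rest. Depth did not limit the 10 genes, whose counting errors were at most 6.14%.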
